A study of Mus musculus with 21 samples.

Results

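Of 4358 distinct single-nucleotide variants (SNVs) listed in mouse embryonic stem cells (ESCs), 636 (14.6%) were listed in all 10 ESC libraries. They were chosen by presence in every list with the same chromosome, position, reference base and alternative base. Genomic DNA of ESCs was captured with exome baits, sequenced and compared with DNA of mouse embryonic fibroblasts (MEFs). Both cell types carry the strain label C57BL6X129S6F1. The 5 culture conditions had 2 libraries each, numbered 3 and 5. SL was serum medium (15%) with leukaemia inhibitory factor (mLIF, 1000 IU) on feeder cells. The other conditions used N2B27 medium with 1000 IU mLIF and the GSK3 inhibitor Chir99021 at 3 µM. 2iL added the MEK inhibitor PD0325901 (1 µM), A2iL the Src inhibitor CGP77675 (1.5 µM) and LCDM the additives written Dim and Mih (2 µM each), all on feeders. 2iL-F had the composition of 2iL and no feeders. The labels call the ESCs a cell line. They do not state how many lines or separate cultures stood behind the libraries. The p-values therefore measure the spread between these libraries, in large part pooled over sites, which may be technical.

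The measured quantity was the alternative-allele fraction, the reads carrying the alternative base divided by the reads carrying either allele. In a diploid cell population, a heterozygous change present in every cell gives a fraction near 0.5. A homozygous change, or a change on the single X chromosome of a male line, gives one near 1. A change in some of the cells gives a lower one. Where a gene has near-identical copies, reads of all copies can be placed on the same position, and the fraction then no longer counts alleles of a single locus. This concerns segmental duplications, interspersed repeats and multigene families such as olfactory and vomeronasal receptors.

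Sequence around a site could be read from RefSeq promoter windows (GRCm38.p6, the assembly behind mm10), which run from 250 bases before to 50 after a gene's start. Of the 636 sites, 12 lay in 13 of the 32851 windows, and the reference base of the deposited lists matched the window in 13 of 13 cases. The 5 windows below show the range of settings in which shared sites occurred: unique sequence next to a gene's start, and duplicated sequence of receptor or predicted genes. The capital letter marks the changed base, and the plus strand is given.
Elmo2: gtgccttcctgctcGttctcacagtgcac
Apobec3: aagggacaaagaggTgggcaggagccttc
Vmn1r103: cagacattgagaggGttttacaggaccct
Vmn1r116: cgacctaatcatcaTtccagggtcctgta
Gm9602: taatgccttccttgGagaatctcttgtat
The Elmo2 window is chr2:165316385-165316413. Its site, intronic in a gene that encodes an engulfment and motility protein, lay outside duplications and repeats, and the changed G was part of a CpG dinucleotide. The pooled fraction over the 10 libraries was 0.489, with single libraries between 0.238 and 0.714 on 186 reads in all. The Apobec3 window, upstream of a cytidine deaminase gene, is chr15:79892330-79892358, and its site also lay in an exon of the noncoding gene D730005E14Rik, at a pooled fraction of 0.338. The windows of the pheromone receptor genes Vmn1r103 (chr7:20510528-20510556) and Vmn1r116 (chr7:20872216-20872244) lay in segmental duplications and had pooled fractions of 0.223 and 0.188. The window of the predicted gene Gm9602 (chr14:4776288-4776316), also in a segmental duplication, had 0.771.

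Sites listed in all libraries were the second largest class after sites listed in a single library (1465). Between these ends the numbers fell from 583 sites in 2 libraries to 167 in 8. At the border of the choice stood 200 sites listed in 9 libraries, with a median pooled fraction of 0.277 against 0.323 for the 636. In 97 of the 200 (48.5%) the missing library had another call within 10 kb, the distance below which no list holds a second call. The missing library was 2iL 5 most often (34 sites) and 2iL-F 5 least often (10).

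**Figure D1:**
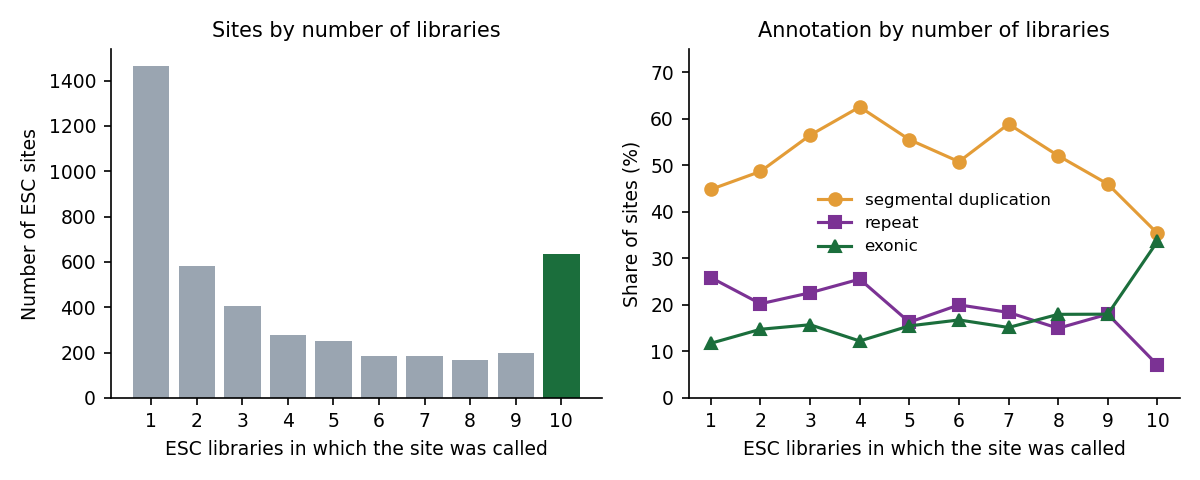
Left, number of ESC sites (y axis) by the number of libraries that listed them (x axis). Right, share of those sites (%) in segmental duplications, in repeats and in exons. The 636 sites listed in 10 libraries, in green, had the highest exonic share (33.6%) and the lowest repeat share (7.08%) of all 10 classes.

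The shared sites made up 34.2 to 36.1% of each library's list. Their median depth was 69 to 93 reads per library, the shallowest single value was 3 reads and the deepest 1557. The 636 sites were read 75719 to 99547 times per library.

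Exons held 214 of the 636 sites (33.6%, against 16.8% of all 4358), intergenic sequence 197 and introns 166. A further 20 sites lay in 3′ untranslated regions, 5 in 5′ untranslated regions, 11 in introns and 9 in exons of noncoding RNAs, 6 downstream and 5 upstream of genes, and 3 at splice sites. Segmental duplications held 225 sites (35.4% against 48.0%), repeats 45 (7.08% against 20.1%), and 16 sites lay in both. Outside both lay 382 sites (60.1% against 38.7%). The duplications had a median identity of 0.978 between copies. Simple repeats were the most frequent repeat class (15 sites), followed by SINE elements (7), and 5 sites each lay in LINE and LTR elements.

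Coding changes split into 111 synonymous, 102 missense and 1 stop gain. The missense sites had a median pooled fraction of 0.255 and the synonymous ones 0.383. Outside duplications and repeats the medians were closer, at 0.339 (76 sites) and 0.416 (89 sites). Of the 6 substitution classes, counted from the pyrimidine of the base pair, C>T was the most frequent, with 265 sites (41.7% against 37.4% of all ESC sites). T>C followed with 142 (22.3%), C>A with 73, T>A with 56, C>G with 52 and T>G with 48. Transitions made up 64.0% of the shared sites and 57.8% of all ESC sites. These shares are descriptions, with no test, since presence in all lists chose the sites.

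The pooled fractions had a broad lower part and a narrow peak below 0.5. In 107 sites (16.8%) every library was at 0.20 or less, which is called steadily low here. Another 274 (43.1%) were below 0.40 without being steadily low. Between 0.40 and 0.60, near 0.5, lay 227 (35.7%). Above 0.60 and under 0.90 lay 22, and 6 were at 0.90 or more, near 1. Outside duplications and repeats 79 sites fell between 0.40 and 0.45 and 76 between 0.45 and 0.50. The neighbouring intervals held 22 below and 10 above.

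**Figure D2:**
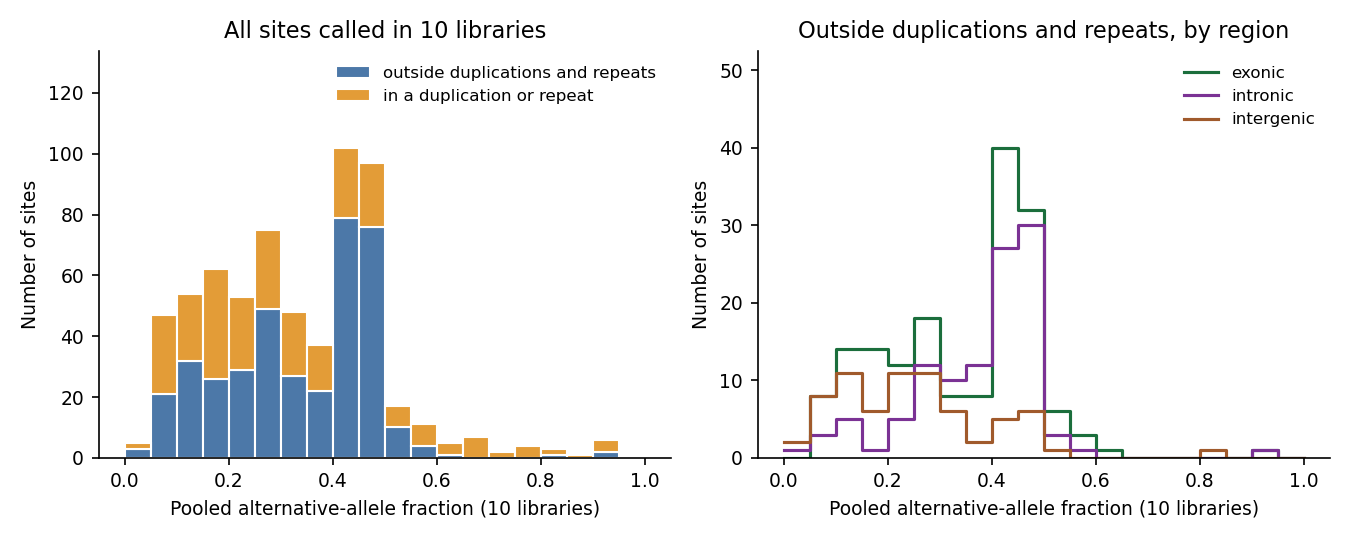
Number of sites (y axis) by pooled alternative-allele fraction over the 10 libraries (x axis, steps of 0.05). Left, all 636 sites, stacked by position in or outside segmental duplications and repeats; right, sites outside both, by region. Exonic and intronic sites peaked between 0.40 and 0.50, whereas intergenic sites outside duplications were spread over the lower fractions.

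The fraction classes differed in depth and in where their sites lay. The median depth summed over the 10 libraries was 2642 reads for steadily low sites and 519 for sites near 0.5. For sites below 0.40 that were not steadily low it was 870. In the MEF control the medians were 241, 50 and 76 reads in the same order. The sites were chosen by presence in all 10 lists, and a low fraction gives few alternative reads at a shallow site. The choice itself therefore favours deep sites in the low classes, and its share in these depths was not tested. Whether low fractions came from merged copies or from changes in some of the cells was not tested. Of the 227 sites near 0.5, 169 (74.4%) lay outside duplications and repeats. The steadily low class held 52 sites in duplications and 52 outside both (48.6% each). Of the 22 sites between 0.60 and 0.90, 19 lay in duplications. Among exonic sites outside duplications and repeats, 81 of 165 (49.1%) were near 0.5 and 23 steadily low. Among exonic sites in duplications, 1 of 46 was near 0.5 and 21 (45.7%) were steadily low. For intronic sites outside both, 61 of 111 (55%) were near 0.5 and 7 (6.31%) steadily low, and for intergenic ones 12 of 70 (17.1%) and 18 (25.7%).

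Of the missense sites near 0.5 outside duplications and repeats, those with the most reads are described here. Mphosph10 D135E (chromosome 7, position 64389816, exon 2), in a component of the ribosome-making U3 particle, had a pooled fraction of 0.461 on 1424 reads. The libraries of SL had 0.422 and 0.415, of 2iL 0.439 and 0.390, of A2iL 0.503 and 0.488, of LCDM 0.415 and 0.491, and of 2iL-F 0.515 and 0.520. Conditions overlapped, apart from 2iL-F above the rest, and the difference did not pass the test described below (adjusted p = 0.332, limma moderated F). Plin2 L183M (chromosome 4, position 86661976, exon 5), in a lipid droplet coat protein, had 0.437 with libraries between 0.376 and 0.497. Spen, a transcriptional corepressor that acts in X inactivation, carried a pair of missense sites 39447 bp apart. These were C1254Y (position 141477554, exon 12) at 0.447 and R241M (position 141517001, exon 3) at 0.445. Sec22a K43R in a vesicle transport protein (0.445), Ube4a N583Y in a ubiquitin chain-elongating factor (0.513) and Eno1b R15C in an enolase gene (0.427) lay in the same range. Cacna1s, a muscle calcium channel, carried the missense site S516L at 0.452 and an intronic site at 0.483.

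Of the steadily low missense sites outside duplications and repeats, the 6 with the most reads are described here. H2-Q1 E285K (chromosome 17, position 35323306, exon 4), in a class I histocompatibility gene, had a pooled fraction of 0.0717 on 8065 reads. Its libraries ranged only from 0.0571 to 0.0818, the lowest and the highest both in LCDM. Olfr1329 I35V (chromosome 4, position 118917363), in an olfactory receptor, had 0.0601. Vmn2r14 V704I, in a vomeronasal receptor, had 0.0616, Ifna5 S81T, in a type I interferon, 0.10, Ugt1a1 K80M, in a bilirubin-conjugating enzyme, 0.101, and Vmn1r7 V52M 0.147. Several of these genes belong to multigene families (histocompatibility genes, olfactory and vomeronasal receptors), so their counts are uncertain even outside annotated duplications. The single stop gain, Gm10436 W210X (chromosome 12, position 88177436, exon 3), was steadily low as well at 0.158, in a segmental duplication. The lowest pooled fractions of all were 0.0374 at an intronic site of Gm21119 on 11637 reads, and 0.0447 and 0.0461 at intergenic sites of chromosomes 6 and 10.

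Between these classes, the deepest missense sites outside duplications and repeats had fractions from 0.168 to 0.297. Tuba1a R264C (chromosome 15, position 98950600, exon 4), in an alpha tubulin, had 0.276, with libraries between 0.246 and 0.319. Tubb3 A271T, in a beta tubulin, had 0.190, Matr3 M548V, in a nuclear matrix protein, 0.176, Cyb5b R137H, in a mitochondrial cytochrome b5, 0.168, Gm5148 D30N, in a predicted gene, 0.208, and the joint Olfr426 and Olfr427 change I163M 0.297. Tubulins and olfactory receptors have close paralogs, so these counts are uncertain. The splice site changes had fractions of 0.32 in Mgme1, a mitochondrial DNA exonuclease, 0.349 in Cyp2c37, a cytochrome P450 in a duplication, and 0.655 at a site shared by Gm21312 and other predicted genes. Prdx6 A124D (chromosome 1, position 161244224, exon 3), in a peroxiredoxin, lay just above the limit of 0.60 at 0.604, with libraries from 0.562 to 0.677, and was the single missense site outside duplications between 0.60 and 0.90.

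Sites above 0.60 were concentrated in a few places. Of the 22 between 0.60 and 0.90, 11 lay on chromosome 14, and 10 of these between positions 3064911 and 7006334. Of the 6 sites near 1, Ddias P706L (chromosome 7, position 92858589, exon 7), in a DNA damage-induced apoptosis suppressor, and an intron of the X-linked gene Aff2 (position 69785187) lay outside duplications. The others, Gm13286 R54R on chromosome 4, intergenic positions 66312327 and 66325827 of chromosome 13 and position 149352071 of chromosome X, lay in duplications.

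Intergenic sites also formed runs. Taking runs of at least 5 intergenic sites with gaps of up to 1 Mb, 8 stretches held 82 of the 197. The fullest, with 21 sites over 2.24 Mb of chromosome 12 (113625765 to 115861940), lay between Adam6a and Zfp386, where the variable segments of the immunoglobulin heavy chain are found, and had a median pooled fraction of 0.236. A run of 18 sites at the start of chromosome 14 (3138061 to 7506166), all in duplications, had a median of 0.465, with values from 0.162 to 0.885. A further 13 sites lay on chromosome 12 between 19217847 and 24263041 (median 0.402), and 9 on chromosome 13 between 65415125 and 66488296 (median 0.448). A run of 6 sites on chromosome 14 (51431967 to 53757253), 5 of them in duplications, began near Vmn2r89 and ended before Dad1 (median 0.226). Only its sites from 52667258 on lay between Olfr1507 and Dad1, in the region of the T-cell receptor alpha segments. These stretches were delimited after the positions were seen.

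By chromosome, 7 held the most shared sites (78, or 12.3% against 12.5% of all ESC sites), followed by 14 (54, 8.49% against 12.3%), 12 (51, 8.02% against 9.34%), 4 (45, 7.08% against 7.23%) and 8 (43, 6.76% against 5.32%). Chromosome 18 held 28 (4.40% against 1.95%). Chromosomes 12 and 14 held 35 and 37 of theirs in duplications. Chromosome 16 had the fewest (8), apart from Y, where none of the 636 lay. The X chromosome had 16.

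Some gene families held shares of the 636 sites near those of all ESC sites, and others did not. Predicted gene models (Gm) accounted for 34 sites, 28 of them in duplications (5.35% against 5.78%). Vomeronasal receptors accounted for 15 (13 in duplications, median pooled fraction 0.192), olfactory receptors for 12 (median 0.194), solute carriers for 8, zinc finger genes named Zfp for 7, killer lectin-like receptors for 5 and histocompatibility genes for 4. Vomeronasal receptors made up 2.36% of the shared sites and 2.75% of all ESC sites, and olfactory receptors 1.89% and 1.12%. For Zfp genes these shares were 1.10% and 1.12%, and for killer lectin-like receptors 0.786% and 0.757%. Solute carriers had 1.26% and 0.849%, histocompatibility genes 0.629% and 0.321%, and genes with Rik names 2.04% and 2.94%. The 2 protocadherin sites among all ESC sites were both shared. Of the 14 genes with several shared sites, Hmgxb4 had 0.177 and 0.204, Rprd1b 0.188 and 0.263, and Col7a1, a basement membrane collagen, 0.40 and 0.466. The widest gap within a gene outside duplications was in Eif5b, a translation initiation factor, with 0.212 in the 3′ untranslated region and 0.477 in an intron that lay in an LTR element.

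Genes of 8 functional lists were looked up among the shared sites. No site lay in the lists of pluripotency genes (25 genes), MAPK, Wnt, Src and growth factor signalling (31), tumour suppressors and oncogenes (17) or telomere maintenance (13). All ESC sites together held 4, 4, 1 and 2 in these lists. Of 31 cell cycle genes, Ccne1 carried a shared site (1 of 9 ESC sites in the list). Of 48 DNA repair and replication genes, Pcna, the sliding clamp of DNA polymerases, and Pold1, a catalytic polymerase subunit, carried 1 synonymous site each (T206T at 0.316 and D287D at 0.476), which made 2 of 10 ESC sites in the list. Of 30 DNA methylation and chromatin genes, Dnmt3b carried K383R (1 of 6 ESC sites), with libraries between 0.168 and 0.261. Of 17 apoptosis genes, Bid, which links death receptors to mitochondria, carried the synonymous D59D at 0.521, the 1 ESC site of that list.

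In the MEF control, 581 of the 636 sites had 0 alternative reads and 55 (8.65%) had exactly 1, at a control depth of 8 to 899 reads (median 75). Of all 4358 ESC sites, 269 (6.17%) had alternative reads in the control. No ESC site carried an identifier of the variant database dbSNP. Summed over the sites, the control had 55 alternative reads among 85132 (0.0646%), against 222058 among 879445 (25.2%) in the ESC libraries. A count of 0 still allows a fraction of up to 3 reads over the depth, a median limit of 0.0417 and at most 0.375. The lowest of the 10 library fractions was above that limit at 568 of the 581 sites and not at 13. These limits and counts cover counting error only, since PCR copies of a molecule cannot be told apart here. The highest control fraction was 0.0417, at an intronic site of Osbpl1a in a simple repeat (1 of 24 reads), followed by Daglb (1 of 32). Absence from the control was a property of the lists before the sites were chosen here, because each list was called against it.

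Across libraries the fractions of the 636 sites were correlated, over a span from steadily low sites to sites near 1. Within the class near 0.5, the median range of a site across libraries was 0.232. Pearson's r across sites was 0.871 (LCDM) to 0.918 (2iL-F) between libraries of a condition. It was 0.863 to 0.899 between conditions other than LCDM (24 pairs) and 0.821 to 0.851 between LCDM and the others (16 pairs). The LCDM libraries had the lowest median depths at these sites, 69 and 69.5 reads, against 75 to 93 in the others. Read sampling lowers such correlations, and how far depth set the LCDM values was not tested. Sites are not independent replicates, and the libraries share a capture design and a control.

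The 2iL-F libraries, grown without feeders, had the highest median fractions. The median over the 636 sites was 0.333 and 0.339 in the 2iL-F libraries. It was 0.30 and 0.306 in SL, 0.315 and 0.318 in 2iL, 0.32 and 0.316 in A2iL, and 0.306 and 0.32 in LCDM. Both 2iL-F libraries lay above all 8 others. The mean was highest in 2iL-F (0.336 ± 0.00421, SD, n = 2) and lowest in SL (0.303 ± 0.00425). A2iL followed 2iL-F with 0.318 ± 0.00267, then 2iL with 0.316 ± 0.00217 and LCDM with 0.313 ± 0.00976, and these 3 did not differ beyond their spread. For the 227 sites near 0.5 the median was 0.484 in both libraries of 2iL-F. The 8 others lay between 0.433 (SL 5) and 0.463 (LCDM 3). 2iL and 2iL-F differ by the feeders in the labels. How much feeder DNA the ESC libraries held was not tested.

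**Figure D3:**
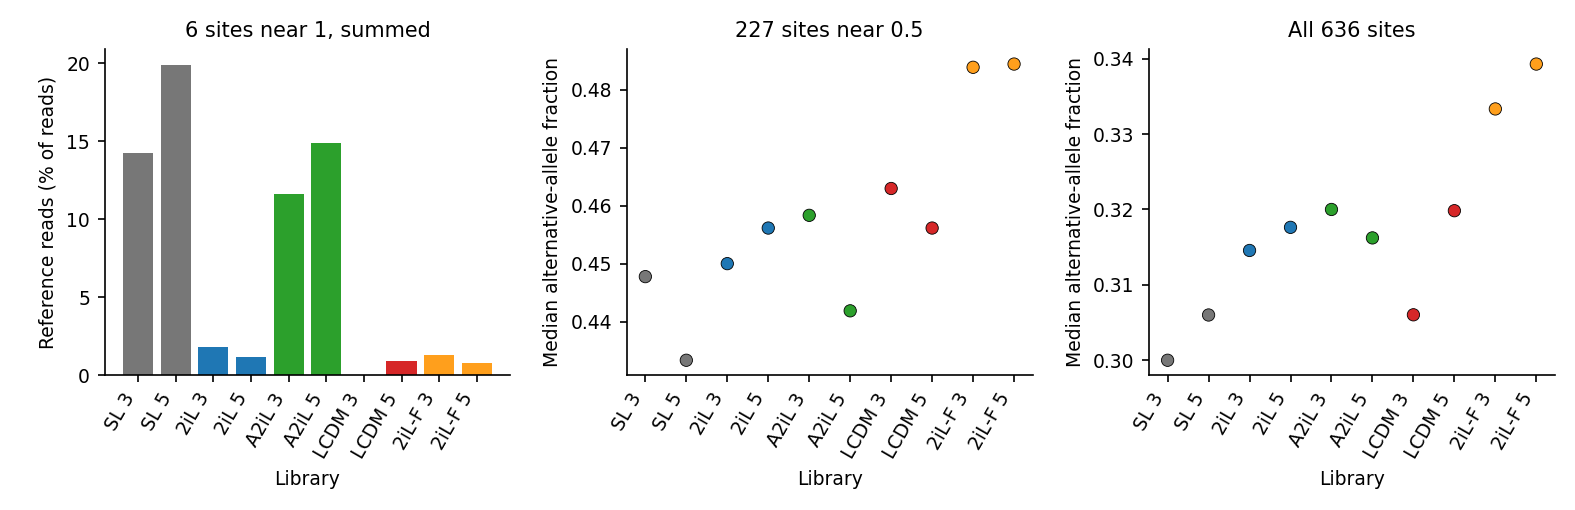
Left, reference reads as a share (%) of all reads at the 6 sites near 1, per library; middle and right, median alternative-allele fraction per library of the 227 sites near 0.5 and of all 636 sites (the y axes do not start at 0). SL and A2iL held 11.6 to 19.9% reference reads at the sites near 1 and the other libraries at most 1.79%, and both 2iL-F libraries stood highest in the other panels.

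Differences between conditions were tested site by site in limma on the log odds (natural log) of alternative to reference reads. To each allele 0.5 reads were added, and the fit had weights for depth. Benjamini-Hochberg adjustment ran over all 1171 sites fitted. It was done separately for the F test and for the contrast of each condition, with no adjustment over the 5 contrasts. Among the 5 conditions the fraction differed at 21 of the 636 shared sites at an adjusted p under 0.05 (limma moderated F). That was 3.3% of the shared sites, against 1.79% of all sites fitted, and every site called in this test was a shared one. The other fitted sites had fewer values. Sites listed in 6 to 9 libraries had median depths of 61 to 64 reads, against 81 for the shared sites. Whether this bears on the calls was not tested. The median residual variance between libraries of a condition, in units of the variance of read sampling, was 0.810 at the shared sites and 0.711 over all sites fitted. In limma, each site's variance was drawn toward a value common to all sites (0.796 in these units, weighted as 19.9 degrees of freedom). The p-values thus rest in large part on a common spread below that of read sampling. The counts moved with single libraries: 42 sites without A2iL 3, 39 without SL 3, 36 without A2iL 5, 32 without 2iL 3, 12 without 2iL 5, 7 without LCDM 3, and 2 without either 2iL-F 3 or 2iL-F 5. A quasi-binomial model of each site on its own called 0, with 79 sites at an unadjusted p under 0.05, against 102 in limma.

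At 16 shared sites the fraction was lower in LCDM than in the mean of the other 4 conditions (limma, adjusted p under 0.05), and 1.37% of all sites fitted were called so. LCDM was higher at none of the 636 (29 at an unadjusted p under 0.05 in limma) and at 0.342% of all sites fitted. Of the 16 sites, 11 also passed the F test. At the 16 sites the median of the LCDM means was 0.221 and that of the other conditions 0.463. All 16 had both LCDM libraries below the 8 others, as did 4.56% of the 636 sites, and 3.14% had both above. The 16 sites lay on 10 chromosomes, 14 outside duplications and repeats, 7 in exons, 6 in introns and 2 between genes, and 10 were in the class near 0.5. Their depth in LCDM, relative to the median of the shared sites, was 0.855, against 0.697 to 0.799 in the other conditions. As a share of the reads at all 636 sites, LCDM did not stand apart. The 16 sites held 1.69 and 1.63% of these reads in LCDM and 1.51 to 1.69% in the other libraries. Without LCDM 3 the count was 7, without any other library it was 11 to 18.

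The deepest of these was intergenic, on chromosome 3 at position 52613341, a G>T change 263.2 kb from Foxo1 and 126.4 kb from Gm2447. Its fractions were 0.467 and 0.412 in SL, 0.425 and 0.490 in 2iL, 0.477 and 0.438 in A2iL, 0.201 and 0.245 in LCDM, and 0.488 and 0.540 in 2iL-F, on 381 to 594 reads. Both LCDM libraries stood apart, at less than the lowest of the others. The log odds in LCDM differed by -1.11 ± 0.0945 (SE) from the other conditions (limma, adjusted p = 1.36e-08). In Ccne1, which encodes cyclin E1, the partner of CDK2 at entry into S phase, the change R134C (chromosome 7, position 38102842, exon 6) had 0.667 and 0.591 in SL, 0.542 and 0.517 in 2iL, 0.628 and 0.635 in A2iL, 0.318 and 0.293 in LCDM, and 0.681 and 0.633 in 2iL-F. The 8 libraries outside LCDM lay above 0.5 and both LCDM libraries at about 0.3 (difference -1.26 ± 0.210 in log odds, limma, adjusted p = 0.000577). The control had 0 alternative reads among 47, which allows a fraction of up to 0.0638.

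Exonic changes of the same kind were found in genes of several functions. Git1 R123H (chromosome 11, position 77499807, exon 4), in a GTPase-activating scaffold of cell adhesions, had 0.161 and 0.178 in LCDM and 0.373 to 0.505 elsewhere (adjusted p = 0.000387, limma). Ssh2 N378I (chromosome 11, position 77437742, exon 11), in a phosphatase that activates cofilin, lay 62.1 kb away. It had 0.253 and 0.133 in LCDM and 0.366 to 0.470 elsewhere (adjusted p = 0.00202, limma). The other exonic sites were synonymous. Snapc4 Q335Q, in a subunit of the snRNA gene activator, had 0.219 and 0.120 in LCDM and 0.382 to 0.503 elsewhere. Aifm2 A287A, in an oxidoreductase that limits lipid peroxidation, had 0.185 and 0.121 in LCDM against 0.322 to 0.548. Prdm16 R874R, in a transcription factor of brown fat, and Trim31 V490V, in a ubiquitin ligase, had 0.217 to 0.243 in LCDM.

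Intronic sites of B9d1, a protein of the ciliary transition zone, and Nedd4l, a ubiquitin ligase of sodium channels, showed the same fall. B9d1 had 0.194 and 0.208 in LCDM and 0.409 to 0.50 elsewhere, and Nedd4l 0.154 and 0.196 against 0.377 to 0.554. Skp1a, a subunit of SCF ubiquitin ligases, Ncoa5, a nuclear receptor coactivator, Ablim3, an actin-binding protein, and Col7a1 made up the rest. The pair of sites in duplications had high fractions outside LCDM. Position 20071878 of chromosome 12 had 0.449 and 0.421 in LCDM and 0.818 to 1 elsewhere. The 3′ untranslated region of Trim12a had 0.417 and 0.529 in LCDM and 0.783 to 1 elsewhere, on as few as 11 reads.

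**Figure D4:**
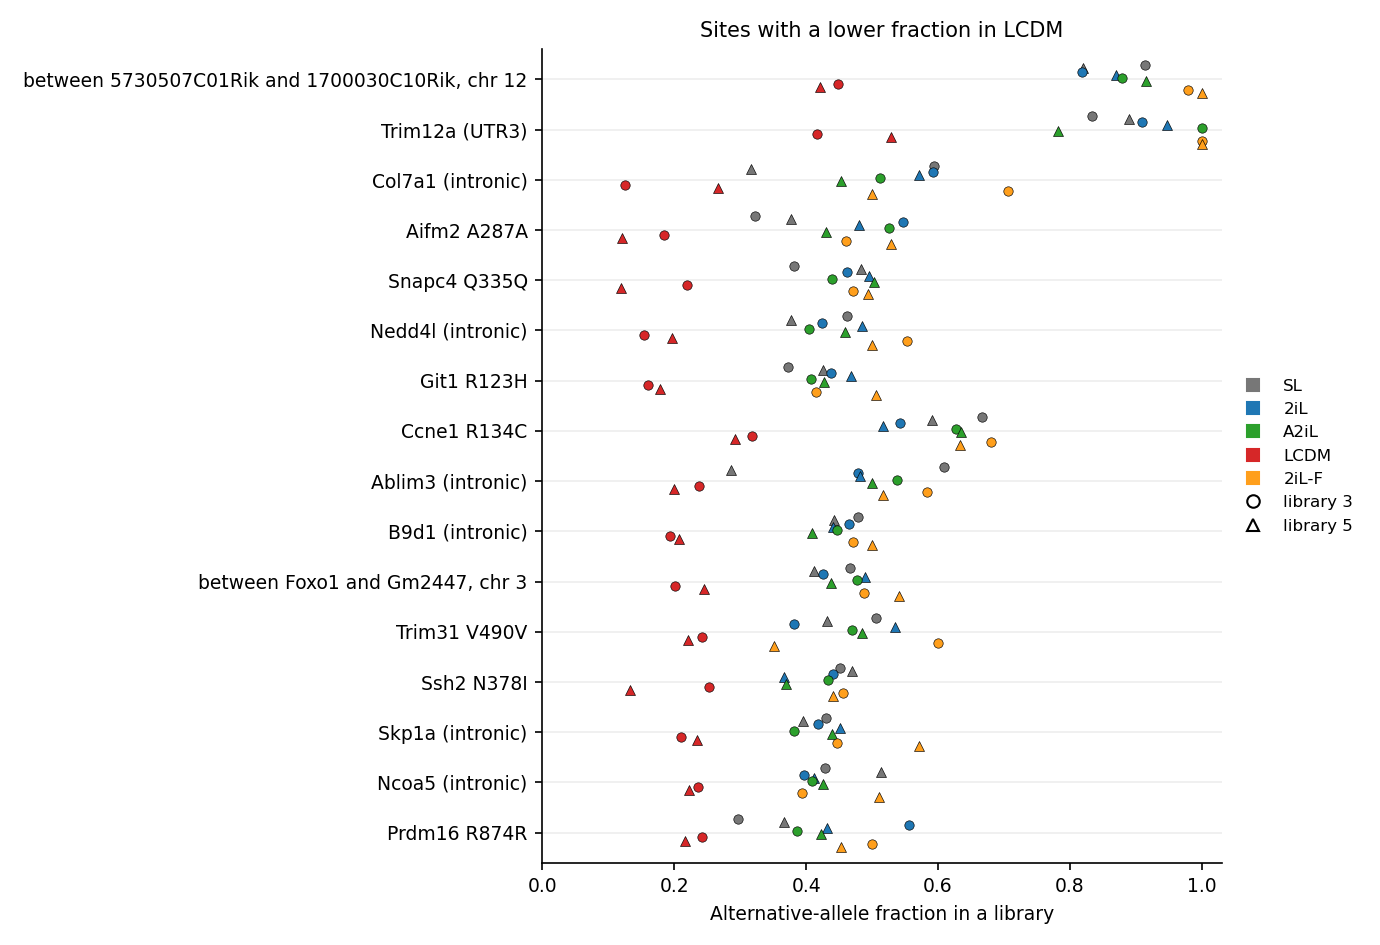
Alternative-allele fraction (x axis) in each of the 10 libraries at the 16 sites (rows) with a lower fraction in LCDM; colours mark conditions and symbols the library number. At every row both LCDM points, in red, lie left of the 8 others, at 0.120 to 0.529.

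In 2iL-F the fraction was higher than in the mean of the other conditions at 14 shared sites (limma, adjusted p under 0.05), and 1.45% of all sites fitted were called so. It was lower at none of the 636 (6 at an unadjusted p under 0.05 in limma). Of the 14 sites, 8 also passed the F test. Both 2iL-F libraries lay above the 8 others at 13 of these 14, and at 8.18% of the 636 sites, against 0.786% with both below. The count rested on single libraries: it was 0 without 2iL-F 3 or 2iL-F 5, 8 without 2iL 5, 9 without LCDM 3, 23 without LCDM 5 and 25 without either A2iL library. Over all 636 sites the median difference in log odds was 0.13 in 2iL-F, against 0.11 over all sites fitted, so the 14 sites moved in the direction of the whole.

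The sites higher in 2iL-F lay on 8 chromosomes, 6 of them in duplications. Position 69700924 of chromosome 6, in a duplication between Rprl1 and Rpia, had 0.404 and 0.329 in SL, 0.429 and 0.402 in 2iL, 0.410 and 0.398 in A2iL, 0.413 and 0.448 in LCDM, and 0.531 and 0.540 in 2iL-F. The 2iL-F libraries stood above the others, which ranged from 0.329 to 0.448 (difference 0.53 ± 0.0920 in log odds, limma, adjusted p = 0.00338). This site passed the F test (adjusted p = 0.0102, limma moderated F). It did not pass that test without weights (adjusted p = 0.395) or on the arcsine scale (adjusted p = 0.0628). Position 5484241 of chromosome 14, also in a duplication, reached 0.985 and 0.969 in 2iL-F and 0.670 to 0.882 elsewhere (adjusted p = 0.00700, limma). An intron of Wnk3, an X-linked kinase of ion transport (position 151215290), had 0.443 and 0.447 in 2iL-F and 0.349 to 0.408 elsewhere (adjusted p = 0.0115, limma). Olfr1329 I35V, steadily low, had 0.0827 and 0.10 in 2iL-F and 0.0464 to 0.0593 elsewhere (adjusted p = 0.0115, limma). Ints5 L173R, in a subunit of the Integrator complex and in a duplication, had 0.269 and 0.262 against 0.0888 to 0.241. Cdc40, a splicing factor, had 0.524 and 0.570 at an intronic site, and LCDM 5 with 0.508 came close to them. The synonymous sites Nt5c3 L122L and Scarb2 T244T also passed (adjusted p = 0.0448 each, limma). The site of chromosome 3 described above passed here too (adjusted p = 0.00168, limma). Its fraction in 2iL-F 3, 0.488, was below the 0.490 of 2iL 5.

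**Figure D5:**
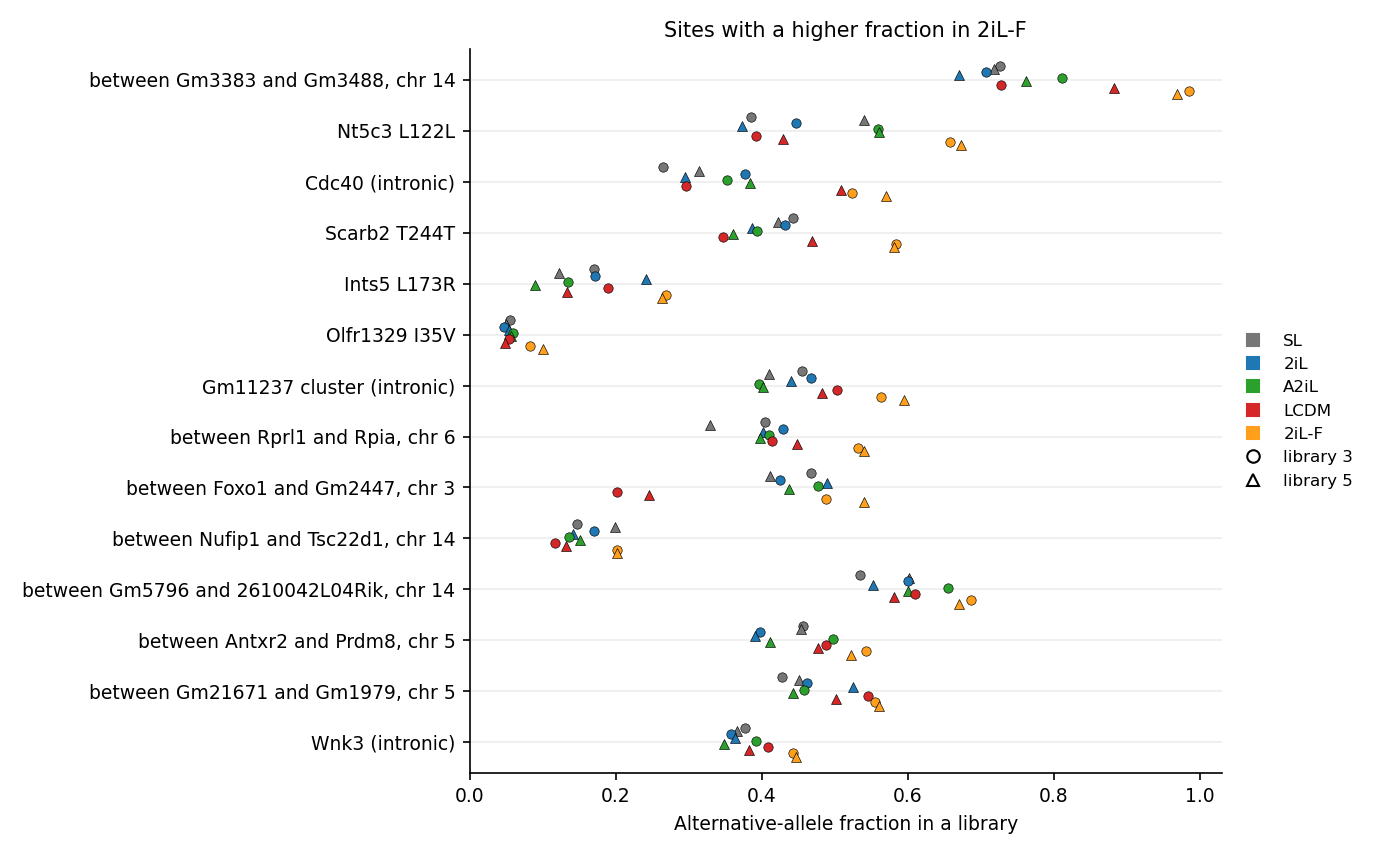
Alternative-allele fraction (x axis) in each of the 10 libraries at the 14 sites (rows) with a higher fraction in 2iL-F; colours mark conditions and symbols the library number. The 2iL-F points, in orange, lie right of all others in 13 rows, and in the row of Foxo1 and Gm2447 the LCDM points lie far to the left.

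The remaining conditions gave few calls. In SL the fraction was lower at 2 shared sites (limma, adjusted p under 0.05; 0.171% of all sites fitted were called so), Gm13286 R54R and Ddias P706L, both near 1. Ddias had 0.855 and 0.746 in SL, 0.964 and 0.984 in 2iL, 0.850 and 0.880 in A2iL, 1 and 0.98 in LCDM, and 0.958 and 0.970 in 2iL-F. SL and A2iL overlapped each other and lay below the rest (SL adjusted p = 0.00484, limma; A2iL adjusted p = 0.304). Gm13286, in a duplication near the interferon genes, had 0.881 and 0.812 in SL, 0.938 and 0.860 in A2iL and 0.991 to 1 elsewhere. It passed in SL (adjusted p = 0.00160, limma) and in A2iL (adjusted p = 0.0252, limma). The second site lower in A2iL (0.171% of all sites fitted), position 149352071 of chromosome X, had 0.793 and 0.718 in A2iL, 0.814 and 0.875 in SL and 0.962 to 1 elsewhere (adjusted p = 0.0245, limma). Where libraries had no reference read, the log odds depend on the 0.5 reads added.

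Summed over the 6 sites near 1, reference reads made up 14.2 and 19.9% of the reads in SL, 11.6 and 14.9% in A2iL, 1.79 and 1.18% in 2iL, 0 and 0.930% in LCDM, and 1.27 and 0.772% in 2iL-F, on 211 to 330 reads per library. All 4 libraries of SL and A2iL lay above the other 6. The SL count was 1 without SL 5, 4 without A2iL 5 and 0 without 2iL-F 3 or 2iL-F 5. The A2iL count was 1 without LCDM 5 and 0 without 2iL 5, A2iL 5, LCDM 3, 2iL-F 3 or 2iL-F 5. In 2iL, no shared site was called in either direction in limma (30 lower and 20 higher at an unadjusted p under 0.05). SL and A2iL were higher at none of the 636 (14 and 15 at an unadjusted p under 0.05 in limma). Both SL libraries lay below the 8 others at 4.09% of the 636 sites and above them at 1.42%, both 2iL libraries below at 3.14% and above at 1.57%, and both A2iL libraries below at 2.2% and above at 0%.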

How the data were processed

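The submitters' processing notes name BWA, SAMtools, Picard and mm10 but no SNV caller. As the file headers show, the authors' deposited lists give, for each SNV, genotype, reads per allele, depth, fraction, annotation and the MEF control. No ESC list held calls within 10 kb of each other, and every ESC call was listed as heterozygous. The fraction was recomputed from the reads per allele. Another 8 columns of per-sample values were not used. The fit was a weighted linear model per site, moderated by limma 3.58.1 (squeezeVar) in R 4.3.3 and tested on simulated reads. It took sites listed in at least 1 library of each condition. Alternatives are given in the closing section. The sites and gene lists were chosen with earlier results of these data known. Named sites were stop-gain and splicing sites, the 6 deepest protein-changing sites of each fraction class outside duplications and repeats, the 10 smallest F test p-values, protein changes in listed genes, the highest control fractions, extreme and most variable sites, and family examples. Sites singled out beyond this, such as called sites and genes with several sites, were named after their values were seen. Of 439 gene symbols, 407 stood in a RefSeq gene table (GRCm38.p6) and 18 as synonyms only.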

Additional observations from a re-analysis of the deposited data

Results flagged for a closer look

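Of the 636 sites listed in all ESC libraries, 53 also stood in at least 1 of the 8 tumour lists, which the comparisons above did not use and which were called against blood DNA. All ESC sites together held 207 such sites. Of the 53, 26 were near 0.5 in ESCs, 21 below 0.40, 5 steadily low and 1 near 1, 48 stood in 6 or more tumour lists and 1, an intergenic site of chromosome 14, in all 8. The intronic Aff2 site had a fraction of 1 in 6 tumour lists, and Pold1 D287D had 0.318 to 0.684 in 7. None of the 16 sites lower in LCDM was in a tumour list, and neither were most of the 636. With 16 sites this is not a difference from the rest.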

How the results depend on the processing

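Values are for the 636 sites. Any call within 10 kb in the missing libraries raised their number to 1952, the limit to sites outside duplications and repeats lowered it to 382, and leaving out a library gave 646 to 670. Near 0.5 lay 114 with limits of 0.45 and 0.55 and 26 with every library between 0.40 and 0.60 (without 1 library, 216 to 230). Near 1 lay 0 with a limit of 0.95, 0 with every library at 0.90 or more, and 2 outside duplications and repeats (4 to 7). Steadily low were 22 with every library at 0.10 or less, 168 with a pooled fraction of 0.20 or less, and 52 outside duplications and repeats (107 to 112). C>T made up 46.1% outside both.

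The F test called 10 without weights, 13 on the arcsine scale, 36 fitted on the 636 alone, 0 in the quasi-binomial model and 37 with the label number as a replicate block (2 to 42 without 1 library, where the lone library of a condition was assumed to vary like the others). The labels do not say whether the numbers 3 and 5 pair libraries. Correlations of same-numbered deviations were -0.103 to 0.0635 over 10 condition pairs. Read sampling lowers such correlations, so they cannot settle whether libraries were paired. Sites lower in SL numbered 0 without weights and 1 outside duplications and repeats (0 to 4), higher in SL 1 outside both and 1 with the block (0 to 1), lower in 2iL 1 fitted alone and 1 with the block (0 to 2), and lower in A2iL 0 without weights and 0 outside both (0 to 3). Higher in A2iL were 0 to 1, and higher in 2iL and lower in 2iL-F 0 to 0. Lower in LCDM were 7 to 18 without 1 library, and higher in LCDM 1 fitted alone, 1 outside both and 1 with the block (0 to 2). Higher in 2iL-F were 2 without weights, 25 fitted alone and 26 with the block (0 to 25).

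As means over sites in place of medians, fractions were 0.315, 0.328, 0.324, 0.33 and 0.351 (SL, 2iL, A2iL, LCDM and 2iL-F, the order kept in the next values). Outside duplications and repeats, medians were 0.328, 0.34, 0.35, 0.336 and 0.367, and with at least 20 reads 0.283, 0.294, 0.291, 0.291 and 0.315. With 0 control reads they were 0.32 in 2iL, 0.321 in A2iL and 0.343 in 2iL-F. By library they were 0.30 to 0.306, 0.315 to 0.318, 0.316 to 0.32, 0.306 to 0.32 and 0.333 to 0.339. Causes of these changes were not tested. For the 10 sites with the smallest p in the F test, which has no direction, 138 alternative values stayed under the threshold and 39 did not. Depth limits the shallow sites, some read 3 times in a library.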
